A study of Sus scrofa with 30 samples.

Results

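The transcripts of 10 adipocyte genes were followed through pig teat tissue: PPARG, CEBPA, LPL, FABP4, GPD1, CIDEA, FASN, SCD, ADIPOQ and LEP. Members were the probe sets of the Affymetrix Porcine Genome array for which the platform annotation gives exactly 1 of these symbols. All 10 genes were present, with 18 probe sets among the 24123 on the array, which cover 6765 single symbols. Of the 18, 2 are control probe sets for leptin and are given by value only.

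Fat cells form under the control of the nuclear receptor PPARG and the transcription factor CEBPA, which switch on each other and the genes of the mature cell. A mature fat cell takes up fatty acids released by lipoprotein lipase, makes others from glucose, esterifies them to glycerol and stores them as a lipid droplet, and it secretes hormones such as adiponectin and leptin. In the mammary region of a pig before its first litter, fat lies beneath the teat and among the ducts, and skeletal muscle of the skin lies close by.

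The 30 arrays came from 10 peripubertal pigs slaughtered at a mean weight of 110 kg. Each array holds 1 tissue piece, epithelial or mesenchymal, of 1 teat. Each layer was sampled in 3 groups of 5 arrays. The first is a normal teat from each of 5 pigs without the defect (non-affected: 950, 957, 1040, 1058 and 1109). The second is a normal teat from each of 5 pigs that carried inverted teats (affected: 963, 964, 1037, 1059 and 1103), and the third an inverted teat from each of those same 5 pigs. Both sets of 5 animals held 1 German Landrace, 3 Large White x German Landrace pigs and 1 from a Pietrain x (Large White x German Landrace) cross. The pieces are whole tissue, so fewer cells of a type and less RNA per cell cannot be told apart in any value below.

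All levels are the deposited values on a log2 scale, on which a difference of 1 is a 2-fold change. Array medians lay between 5.71 and 6.04, and the 30th percentile of an array, under which a value is called low here, between 4.49 and 4.84. The labelled layers were checked against marker lists in the normal teats. Genes were called in the fit described below (limma, adjusted p under 0.05). Of 15 tested genes of luminal and milk-producing epithelium 8 were called higher in the epithelial layer and 1 in the mesenchymal. Of 7 keratinocyte genes 3 were called higher in epithelial tissue. Of all 18286 probe sets 12.9% were called higher in epithelial and 20.6% in mesenchymal tissue (19% and 15.7% with quantile normalization). The fibroblast list did not part the layers, with 2 of 15 genes called higher on each side. Its list means were 10.16 to 11.32 (epithelial arrays) and 10.59 to 11.48 (mesenchymal arrays). Skeletal muscle genes were called higher in mesenchymal tissue in 24 of 25 cases. Their list mean ran from 3.27 to 11.79 there and from 3.21 to 8.43 on epithelial arrays.

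In the normal teats every tested adipocyte probe set was higher in mesenchymal than in epithelial tissue. In the fit over the 20 arrays of normal teats (limma with Benjamini-Hochberg adjustment over 18286 probe sets, called at an adjusted p under 0.05), 15 of 15 tested member probe sets were called, and all 10 genes were represented. Over all probe sets, 20.6% were called higher in mesenchymal tissue (3762 of 18286) and 12.9% lower. With quantile normalization these shares were 15.7% and 19%, and all 15 members were called. The median log2 difference was 2.34 over the member probe sets and 0.06 over all tested. The probe set not tested is a second one of CEBPA, which was low on 15 of 15 epithelial and 14 of 15 mesenchymal arrays. Its median level was 4.21 in epithelial and 4.11 in mesenchymal tissue, so it carries no order between the layers. Without the filter on low values 15 of 16 member probe sets were called. The dimmest tested probe sets of FASN and LEP were low on 3 of 5 arrays in each epithelial group of normal teats. They passed the filter only with the mesenchymal arrays, where they were higher, so the filter favoured that direction for them.

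**Figure D1:**
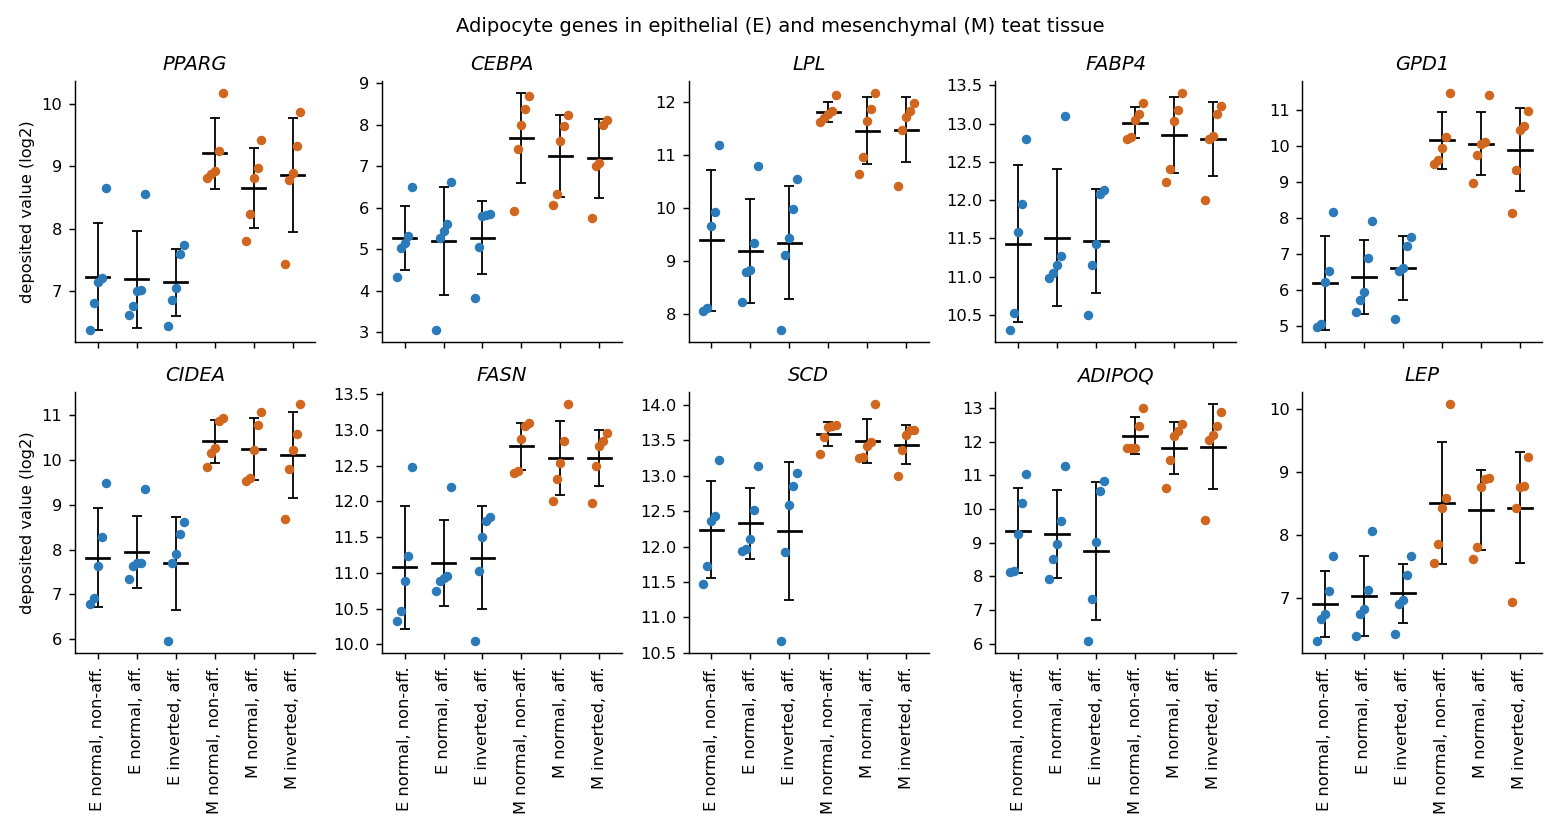
Deposited log2 values of the 10 adipocyte genes, 1 panel a gene, each by its brightest probe set. Points are arrays (blue epithelial, orange mesenchymal), bars are the group mean and the SD over 5 animals, and the groups within a layer are, from left to right, non-affected, affected with a normal teat and affected with an inverted teat. In every panel the 3 mesenchymal groups lie above the 3 epithelial groups, single arrays of both layers overlap, and the 3 groups within a layer overlap throughout.

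The transcription factors come first. For PPARG, the receptor that drives fat cell formation, the epithelial values were 7.14, 6.37, 7.20, 8.66 and 6.80 in non-affected animals (animals in the order given above), 7.0, 6.62, 8.55, 7.01 and 6.75 in normal teats of affected animals and 7.74, 6.44, 7.60, 7.04 and 6.85 in inverted teats. The mesenchymal values were 8.93, 8.82, 9.25, 8.87 and 10.18 in non-affected animals, 8.23, 7.80, 9.43, 8.98 and 8.82 in normal teats of affected animals and 8.90, 7.43, 9.32, 8.78 and 9.88 in inverted teats. Animals 1058 and 1037 had the 2 highest epithelial values, above 3 of the 15 mesenchymal arrays, and animal 964 the lowest values of mesenchymal tissue in both of its teats. Within each of the 15 teats the mesenchymal piece was the higher one. The log2 difference in normal teats was 1.72 ± 0.30 (SE, n = 10 animals, adjusted p = 0.00030 by limma), or 3.30-fold.

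CEBPA, the factor that sustains the mature fat cell, read 4.34, 5.15, 5.04, 6.50 and 5.33 in epithelial tissue of non-affected animals, 5.43, 3.05, 6.63, 5.27 and 5.60 in normal and 5.79, 3.83, 5.83, 5.86 and 5.06 in inverted teats of affected animals. In mesenchymal tissue it read 5.93, 8.0, 8.38, 7.41 and 8.69, then 6.34, 6.07, 8.24, 7.61 and 7.97, then 7.0, 5.75, 8.0, 7.09 and 8.12 in the same order of groups. The epithelial values reach down to the array background, with 3 of 15 arrays low, so the log2 difference of 2.23 ± 0.42 (SE, n = 10, adjusted p = 0.00067 by limma) rests in part on values near it. On the mesenchymal side animals 950 and 964 were lowest.

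Among the genes that take up and handle fatty acids, LPL, the lipase that frees fatty acids from lipoproteins in the capillary, was measured by 2 probe sets. The brighter one read 9.92, 8.12, 9.67, 11.19 and 8.06 in epithelial tissue of non-affected animals, 9.35, 8.23, 10.80, 8.80 and 8.83 in normal and 10.55, 7.70, 9.98, 9.44 and 9.11 in inverted teats of affected animals. In mesenchymal tissue it stayed between 10.42 and 12.17, and in non-affected animals between 11.62 and 12.13. The spread was thus wider in epithelial tissue, where the SD within groups was 1.13 against 0.52 in mesenchymal tissue. Its log2 difference was 2.34 ± 0.36 (SE, n = 10, adjusted p = 9.9e-05 by limma), and that of the other LPL probe set 2.90 ± 0.37.

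FABP4, the fatty acid carrier of the fat cell cytoplasm, was measured by 1 probe set. Its lowest, median and highest values were 10.30, 11.27 and 13.10 on the 15 epithelial arrays and 12, 13.03 and 13.40 on the 15 mesenchymal arrays. Only 6 mesenchymal arrays lay above all epithelial ones. In the normal teat of animal 1058 the layers differed by 0.02. The log2 difference was 1.46 ± 0.30 (SE, n = 10, adjusted p = 0.0012 by limma), or 2.75-fold.

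GPD1, which makes the glycerol phosphate backbone of triglycerides and also serves glycolysis in muscle, had the largest difference of the 10 genes. Its epithelial values were 6.54, 5.06, 6.23, 8.16 and 4.97 in non-affected animals, 6.90, 5.38, 7.92, 5.95 and 5.72 in normal and 7.47, 5.21, 7.21, 6.62 and 6.53 in inverted teats of affected animals. Its mesenchymal values were 9.61, 9.5, 9.94, 11.47 and 10.24, then 10.06, 8.97, 9.75, 11.41 and 10.10, then 9.33, 8.13, 10.45, 10.97 and 10.54. The layers overlapped by a single pair of arrays, the mesenchymal piece of the inverted teat of animal 964 at 8.13 and the epithelial piece of animal 1058 at 8.16. The log2 difference was 3.82 ± 0.41 (SE, n = 10, adjusted p = 8.1e-06 by limma), or 14.1-fold with a 95% interval of 7.84 to 25.5.

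CIDEA, a protein of the lipid droplet surface that promotes droplet growth, had a lowest, median and highest value of 5.95, 7.70 and 9.48 in epithelial tissue and of 8.68, 10.23 and 11.25 in mesenchymal tissue. It was higher in the mesenchymal piece of all 15 teats, by 0.36 to 4.10. The log2 difference in normal teats was 2.44 ± 0.32 (SE, n = 10, adjusted p = 3.9e-05 by limma).

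Of the lipogenic enzymes, SCD, which puts the first double bond into saturated fatty acids, read 12.36, 11.47, 12.43, 13.22 and 11.72 in epithelial tissue of non-affected animals, 12.51, 11.96, 13.13, 11.94 and 12.10 in normal and 13.04, 10.66, 12.86, 12.59 and 11.92 in inverted teats of affected animals. In mesenchymal tissue it stayed between 13.00 and 14.01. It had the smallest difference, 1.25 ± 0.19 (SE, n = 10, adjusted p = 0.00011 by limma), and the smallest spread within mesenchymal groups, an SD of 0.26.

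FASN, the synthase of palmitate, has 4 probe sets, and they disagreed in size but not in direction. The brightest ran from 10.04 to 12.48 on epithelial arrays and from 11.98 to 13.36 on mesenchymal arrays, with a log2 difference of 1.58 ± 0.25. It was higher in the mesenchymal piece of 14 of 15 teats, the exception being animal 1058 at -0.08. The next 2 gave 2.86 ± 0.43 and 2.81 ± 0.45, and the dimmest, low on 11 of 15 epithelial arrays, gave 1.29 ± 0.26 (SE, n = 10, adjusted p between 9.7e-05 and 0.0010 for the 4 by limma).

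Of the adipokines, ADIPOQ encodes adiponectin, a hormone made almost solely by fat cells. Its epithelial values were 9.27, 8.14, 10.17, 11.03 and 8.17 in non-affected animals, 9.65, 7.91, 11.29, 8.51 and 8.95 in normal and 10.83, 6.07, 10.53, 9.02 and 7.33 in inverted teats of affected animals. Its mesenchymal values were 11.82, 11.80, 12.45, 11.80 and 13.01, then 11.44, 10.62, 12.52, 12.16 and 12.31, then 12.19, 9.67, 12.45, 12.05 and 12.89. Epithelial ADIPOQ had the largest SD within groups of the 10 genes, 1.58, against 0.91 in mesenchymal tissue. Animal 964 had the lowest value in both layers of the inverted teat. By group mean the order was mesenchymal tissue of non-affected animals (12.18 ± 0.54, SD, n = 5), of inverted teats (11.85 ± 1.26) and of normal teats of affected animals (11.81 ± 0.78), then epithelial tissue of non-affected animals (9.36 ± 1.26), of normal teats of affected animals (9.26 ± 1.30) and of inverted teats (8.76 ± 2.05). Neighbours in that order differed by less than their spread except at the step between the layers. The log2 difference in normal teats was 2.69 ± 0.41 (SE, n = 10, adjusted p = 0.00010 by limma), or 6.43-fold.

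LEP, the hormone that reports fat stores, gave different sizes by probe set. The brighter of its 2 tested probe sets ran from 6.31 to 8.06 on epithelial arrays and from 6.94 to 10.07 on mesenchymal arrays, with a log2 difference of 1.48 ± 0.29. The other, with a median of 4.62 on epithelial and 7.98 on mesenchymal arrays, gave a difference of 3.07 ± 0.41, and was low on 8 of 15 epithelial arrays (SE, n = 10, adjusted p = 0.00081 and 4.3e-05 by limma). The 2 control probe sets moved less. One was higher in the mesenchymal piece of 10 of 10 normal teats by a median of 0.48, the other in 8 of 10 by a median of 0.15.

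**Figure D2:**
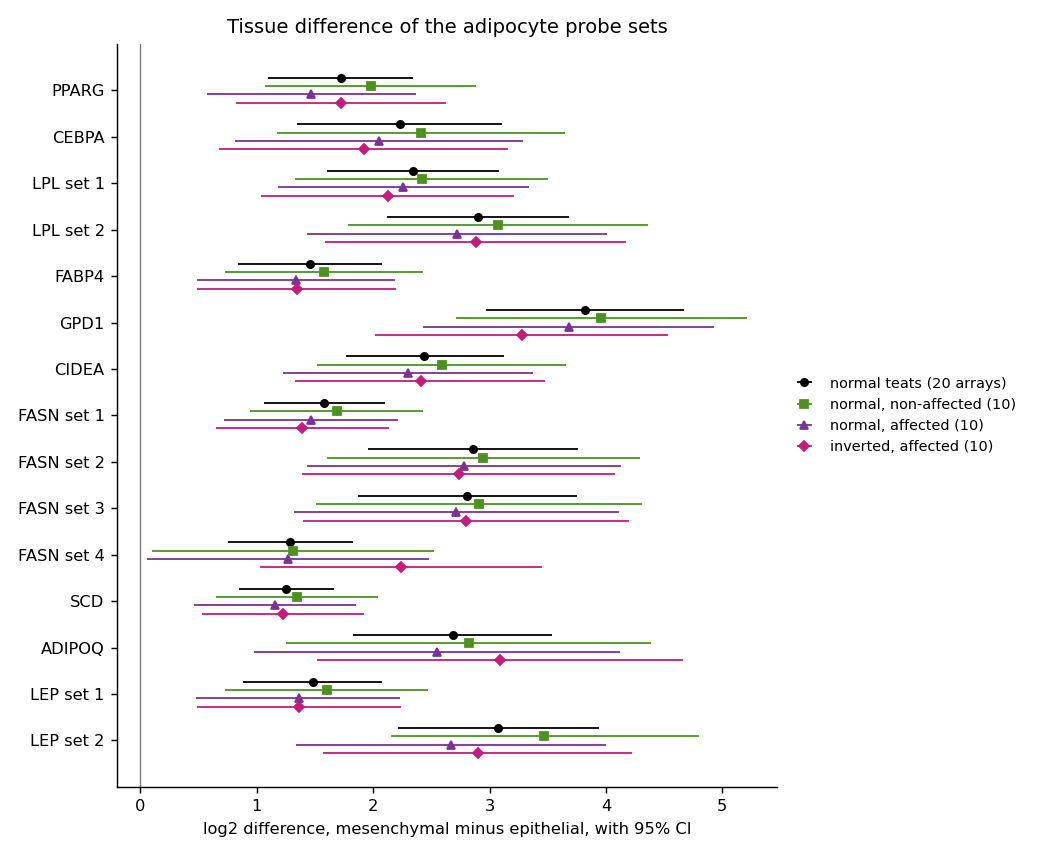
Log2 difference between mesenchymal and epithelial tissue (points) with its 95% interval (lines) for the 15 tested probe sets, numbered by brightness where a gene has several. Black circles are the fit over normal teats, and the other symbols are the 3 teat groups in the fit over 30 arrays. All points lie to the right of 0, from 1.16 to 3.96, and the 3 groups overlap for each probe set.

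The layer difference was present in each of the 3 teat groups. In 1 fit over all 30 arrays, 14 of 15 member probe sets were called higher in mesenchymal tissue in normal teats of non-affected animals, where 8.67% of 18783 probe sets were. In normal teats of affected animals 14 of 15 were called (9.03% of all), and in inverted teats 15 of 15 (12.3% of all). The markers that part the layers in the 20-array fit gave 0 calls in each of these 3 smaller groups for the luminal and milk list and for the keratinocyte list by limma. Their median differences were -1.64 and -0.40 in non-affected animals, -1.86 and -0.46 in normal teats of affected animals, and -0.15 and -0.01 in inverted teats, so in inverted teats the epithelial markers did not set the labelled layers apart. The probe set missing in the first and the second group was the dimmest of FASN, at 1.31 ± 0.59 and 1.27 ± 0.59 (SE, n = 5, adjusted p = 0.15 in each by limma). That probe set was low on 11 of 15 epithelial arrays and passed the filter of this fit only with mesenchymal arrays. The member medians were 2.42, 2.26 and 2.24. With the animal as a random block the member counts were again 14, 14 and 15, while the calls over all probe sets went from 1998, 2128 and 2600 to 3819, 4553 and 4432. These counts depended on single animals: in non-affected animals 4 were called without animal 1109, in normal teats of affected animals 0 without 1059 (smallest adjusted p = 0.058 by limma) and 1 without 1103, and in inverted teats 2 without 1103. The sizes moved little in those fits, with medians of 2.17, 2.05, 2.03 and 2.12 and 15 of 15 differences above 0, while the calls over all probe sets were 467, 9, 377 and 699. With quantile normalization 13, 10 and 10 member probe sets were called, where 963, 989 and 786 of all 18783 were called higher in mesenchymal tissue.

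Whether the layer difference itself changed with teat type or affection status was tested as an interaction in the same fit. None of the 15 probe sets was called in any of the 3 interactions, where 0% of 18783 probe sets were called (171, 121 and 227 had an unadjusted p under 0.05, and the smallest member p was 0.26). Between the inverted and the normal teat of affected animals the interaction of ADIPOQ was 0.54 with a 95% interval of -1.68 to 2.76, and that of GPD1 -0.41 with an interval of -2.18 to 1.36. Those intervals leave room for changes of more than 1 log2 unit in either direction. In the interaction of inverted against normal teats 25 of 25 muscle genes lay below 0, with a median of -2.99, and the luminal and milk list had a median of 1.64, none of them called by limma. Their part in the member values was not tested.

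The size of the layer difference varied between animals in a shared way. In normal teats animal 1058 had the smallest difference for 9 of the 10 genes, with a median over genes of 0.28. Animal 1109 had the largest for 8 of 10, with a median of 3.57. The medians of the other 8 animals lay between 1.19 and 2.65. In epithelial pieces animals 1037 and 1058 held the 2 highest epithelial values for all 10 genes, and animal 957 was among the 2 lowest for 8 and animal 1109 for 7. On the mesenchymal side animal 964 was among the 2 lowest for all 10 genes and animal 963 for 7. GPD1 was the exception in animal 1058, where its difference was 3.30.

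Skeletal muscle transcript moved with the layers as well. In normal teats the list mean of 25 muscle genes was higher in the mesenchymal piece of 9 of 10 animals, by 2.36 to 8.02. In animal 1040 it was 3.28 in the epithelial and 3.27 in the mesenchymal piece, and all 10 adipocyte genes were higher in the mesenchymal piece of that teat, by 1.27 to 3.71. In the inverted teat of animal 963 muscle transcript was higher in the epithelial piece, with list means of 8.10 and 3.60, and all 10 adipocyte genes were higher in the mesenchymal piece by 0.61 to 1.86. With the muscle list mean as a covariate, 14 of 15 member probe sets were called in normal teats. The exception was FABP4 at 1.20 ± 0.45 (SE, n = 10, adjusted p = 0.070 by limma). The GPD1 difference went from 3.82 to 2.83 ± 0.54. Over all 18286 probe sets 2671 were called with the covariate (1746 higher in mesenchymal tissue) and 6122 without it (3762 higher). The muscle mean itself differed between the layers, so this fit cannot fully separate muscle from layer. The median difference was 0.10 over 13 endothelial and 0.29 over 9 macrophage genes, and 1 of 6 sebaceous genes was called, higher in mesenchymal tissue.

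**Figure D3:**
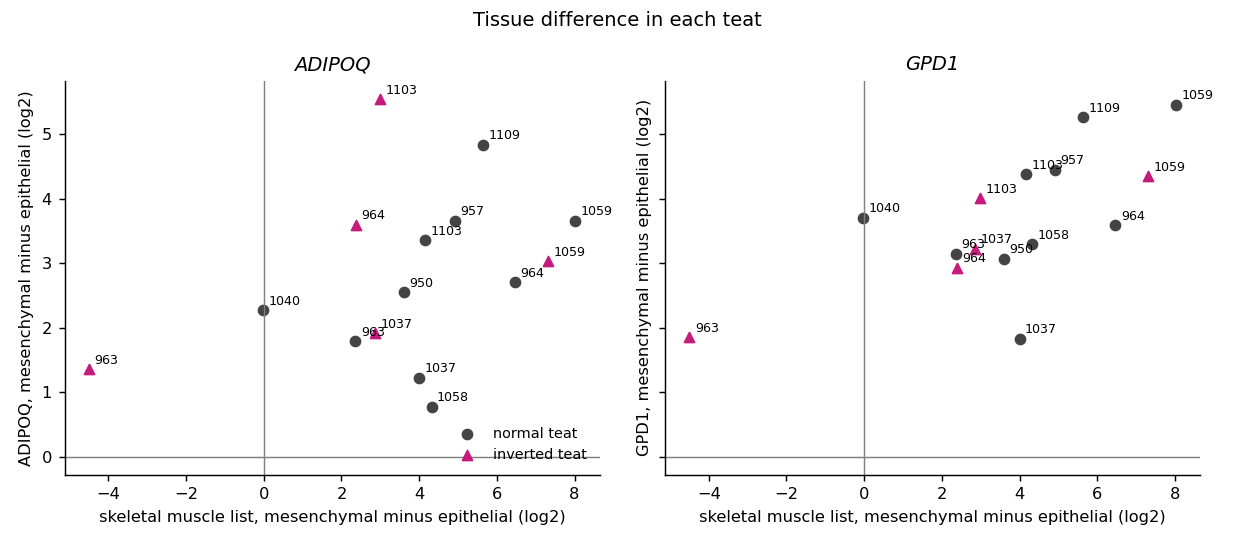
Difference between the mesenchymal and the epithelial piece of each of 15 teats (log2), for ADIPOQ and GPD1 on the vertical axes and the mean of 25 skeletal muscle genes on the horizontal axis, with the animal number beside each point. Circles are normal and triangles inverted teats. All 15 teats lie above 0 for both genes, including the inverted teat of animal 963 with a muscle difference of -4.50 and animal 1040 with one of -0.02.

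The other genes of the fat cell were read from a list of 106 further genes, of which 71 were measured and 64 tested in normal teats. Of the 64, 37 were called higher in mesenchymal tissue and 4 lower, with a median log2 difference of 0.59 against 0.06 over all tested. Over all probe sets 20.6% were called higher and 12.9% lower (15.7% and 19% with quantile normalization), the shares against which the counts below are to be read. Genes counted below as higher or lower are called genes. Lipolysis genes, which release stored fat, were higher in 6 of 7 cases, led by the hormone-sensitive lipase LIPE at 2.95 ± 0.40. PNPLA3 was at 1.86 ± 0.50 and the triglyceride lipase PNPLA2 at 1.82 ± 0.26. Uptake of fatty acids and glucose was higher in 6 of 6, among them GPIHBP1, the capillary anchor of lipoprotein lipase, at 1.33 ± 0.23, and the insulin-responsive glucose carrier SLC2A4, whose 3 probe sets gave 0.04, 1.0 and 2.47. FABP3 at 2.16 ± 0.32 belongs to muscle as well as to fat, as does SLC2A4 (SE, n = 10).

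Adipogenic transcription factors other than the 2 members were higher in 7 of 9 cases, with KLF15 at 1.13 ± 0.16 and CEBPB at 1.22 ± 0.18. CEBPD, an early factor of adipogenesis, was at 0.28 ± 0.15 and was not called. Of the adipokines and receptors 7 of 8 were higher, with the adiponectin receptor ADIPOR2 at 2.09 ± 0.29 and RBP4, the retinol carrier, at 2.19 ± 0.49 (another RBP4 probe set gave 0.31). In fatty acid synthesis 10 of 14 differences lay above 0, and 7 genes were called higher and 1 lower. Among the higher were ACSS2, which activates acetate, at 2.12 ± 0.27 and the malic enzyme ME1 at 2.71 ± 0.37. The lower one was ACSL3 at -0.82 ± 0.30. The regulator SREBF1, at 0.41 ± 0.23, was not called.

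Triglyceride synthesis gave 4 of 11 higher, with the phosphatidate phosphatase LPIN1 at 2.17 ± 0.27 and the final acyltransferase DGAT2 at 2.56 ± 0.39, while GPAM, the first acyltransferase, was at 0.32 ± 0.62 and AGPAT2 at 0.01 ± 0.18. None of 4 lipid droplet coat genes was called by its brightest probe set, with PLIN2 at 0.42 ± 0.25. BSCL2, which encodes the droplet-forming protein seipin, was at 0.21 by that probe set, at 0.63 by another that was called (adjusted p = 0.0081 by limma) and at -0.04 by the last. On the precursor list 3 of 5 genes were lower in mesenchymal tissue, where 12.9% of all probe sets were (19% with quantile normalization). These were DPP4, a marker of early adipocyte progenitors and of some epithelia, at -1.88 ± 0.51, GATA2, a factor that holds back fat cell formation, at -0.59 ± 0.17 (another GATA2 probe set gave 0.21), and GATA3, also a factor of luminal epithelium, at -1.39 ± 0.42 (SE, n = 10). The other 3 GATA3 probe sets gave -1.03, -1.0 and -0.96, of which the second was called (adjusted p = 0.058, 0.044 and 0.075 by limma).

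Inverted and normal teats were compared within each layer, which is the comparison the series was built for. No member probe set was called in any of the 6 teat comparisons by limma. In each of the 6 the share of all probe sets called was 0%, of 17661 in epithelial and 17839 in mesenchymal tissue. At an unadjusted p under 0.05 there were 303, 420 and 484 probe sets in epithelial and 78, 201 and 219 in mesenchymal tissue (in the order inverted against normal within affected animals, affected against non-affected with normal teats, and inverted against non-affected), and no member was among them, the smallest member p being 0.20. These fits leave out that both teats came from the same animals. With the animal as a random block, 992 epithelial and 535 mesenchymal probe sets had an unadjusted p under 0.05 between inverted and normal teats of affected animals, again with 0% called. No member was among these either, the smallest member p being 0.45 and 0.33. With the block the SE of ADIPOQ was 0.64 instead of 0.88 on epithelial arrays and 0.33 instead of 0.52 on mesenchymal arrays. The intervals given next are those without it. The last 2 of these comparisons share the arrays of non-affected animals, and the first shares arrays with each of the others. The muscle list mean on epithelial arrays had a median of 7.12 in inverted teats, 4.17 in normal teats of affected and 3.91 in those of non-affected animals. Within affected animals it was higher in the inverted teat of 964, 1037 and 1103 and not in 963 (8.10 against 8.43) or 1059 (3.68 against 3.76), and none of the 22 tested muscle genes was called by limma. Its part in the epithelial differences was not tested. In mesenchymal tissue, with the muscle list mean as a covariate, the smallest member p was 0.26 and again no member was called.

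In epithelial tissue of affected animals the inverted-minus-normal differences of the 14 tested probe sets ran from -0.50 to 0.24, with a median of -0.02 against 0.00 over all tested. The lowest was ADIPOQ at -0.50, with a 95% interval of -2.37 to 1.37, and the highest GPD1 at 0.24, with an interval of -1.06 to 1.53. Animal by animal the sign was mixed. For ADIPOQ the inverted teat was higher by 1.18 in animal 963 and by 0.52 in 1059, and the differences were -0.76, -1.61 and -1.83 in 1037, 1103 and 964. By the brighter LPL probe set the inverted teat was higher in 963, 1059 and 1103 and lower in 1037 and 964. The other LPL probe set gave the same signs except in 1103, where it was at -0.48.

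In mesenchymal tissue of affected animals the 15 differences ran from -0.34 to 0.21, with a median of 0.02 against 0.07 over all tested. SCD was measured most closely, at -0.04 with a 95% interval of -0.43 to 0.35, and FABP4 was at -0.05 with an interval of -0.60 to 0.50. PPARG was at 0.21 with an interval of -0.68 to 1.1, its inverted teat being higher by 1.06 in animal 1103 and by 0.67 in 963, with differences of -0.11, -0.20 and -0.38 in 1037, 1059 and 964. Apart from SCD and FABP4, the intervals of all tested members reached past 0.5 on both sides, and differences within them were not detectable with 5 animals.

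Between affected and non-affected animals, normal teats gave epithelial differences of -0.19 to 0.59 and mesenchymal differences of -0.56 to 0.05 (affected minus non-affected). The mesenchymal median was -0.21 against -0.02 over all tested, with 14 of 15 below 0. In the same comparison 24 of 25 skeletal muscle genes lay above 0 (median 1.22) and 8 of 9 macrophage genes (median 0.48), none of them called by limma. With the muscle covariate 14 of 15 members lay below 0 again, with a median of -0.12; CIDEA went from -0.17 to -0.02. The part of macrophage transcript was not tested. PPARG was lowest at -0.56, with an interval of -1.45 to 0.33 (n = 5 animals a group, unadjusted p = 0.20 by limma). Inverted teats against normal teats of non-affected animals gave epithelial differences of -0.60 to 0.42 and mesenchymal differences of -0.49 to -0.07, where all 15 lay below 0 with a median of -0.27 against 0.05. Since the 10 genes vary together from array to array and none was called, that shared sign is not a set of 15 separate results. Among normal teats, animals 963 and 964, both affected, were most often among the 2 lowest mesenchymal values. In inverted teats only animal 964 lay below animal 963 for GPD1 (963 at 9.33), CEBPA (7.0) and FABP4 (12.80). For PPARG, ADIPOQ, CIDEA, LPL, LEP and FASN an animal besides 964 also lay below 963, such as 1059 for ADIPOQ (12.05 against 12.19). For SCD, animal 963 had the highest inverted-teat value of the 5 (13.65).

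**Figure D4:**
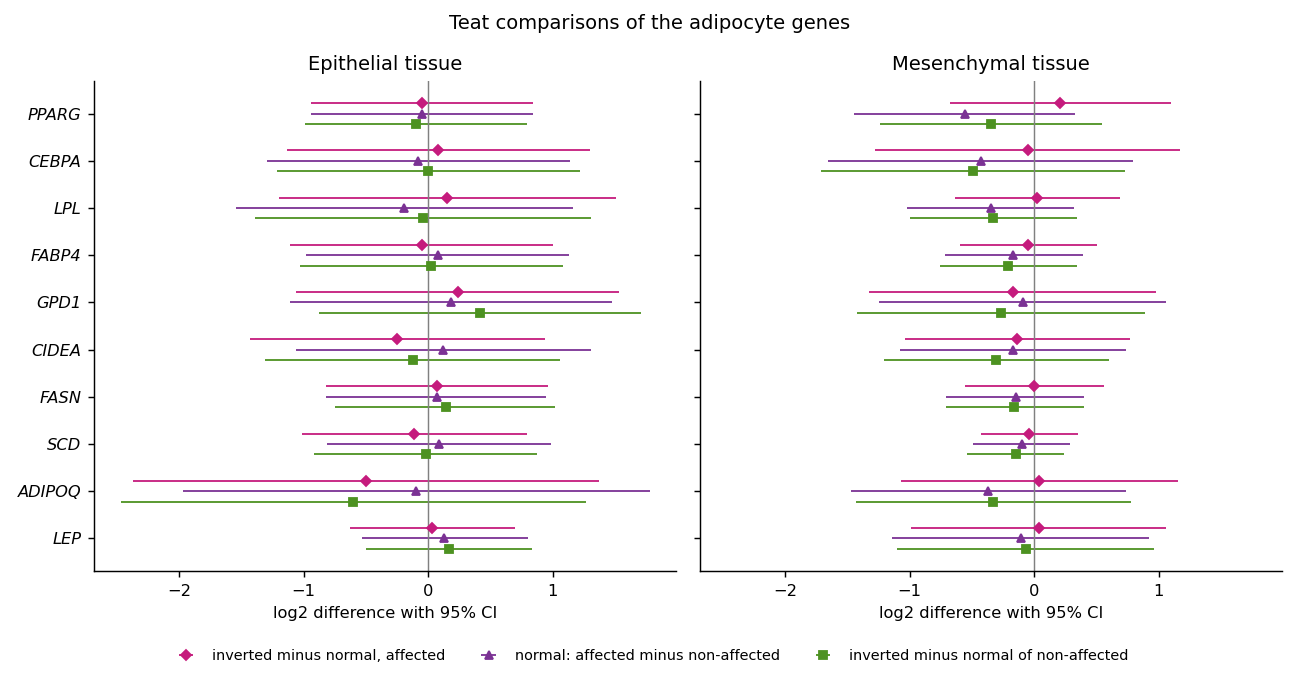
Log2 differences (points) with 95% intervals (lines) of the 10 genes in the 3 teat comparisons, on the left in epithelial and on the right in mesenchymal tissue, each gene by its brightest probe set. Every interval includes 0. Those of ADIPOQ in epithelial tissue are the widest (for example -2.47 to 1.27 for inverted against non-affected teats), and those of SCD in mesenchymal tissue are the narrowest.

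None of the wider list's 59 tested genes in epithelial and 65 in mesenchymal tissue was called in any teat comparison by limma, and list medians lay between -0.04 and 0.03. At an unadjusted p under 0.05 there were 2 results. The smallest unadjusted p was that of AGPAT2, an acyltransferase whose loss causes lipodystrophy, at 0.47 ± 0.15 between affected and non-affected animals in epithelial normal teats (SE, n = 5, unadjusted p = 0.0073, adjusted p = 1 by limma). CEBPD was at -0.50 ± 0.20 between inverted and normal teats in epithelial tissue (unadjusted p = 0.022, adjusted p = 1). PLIN2, a lipid droplet coat protein of many cell types, was at 0.90 ± 0.44 in mesenchymal tissue between inverted teats and normal teats of non-affected animals (unadjusted p = 0.059, adjusted p = 1), a direction opposite to that of the 10 members there. SLC27A1, a fatty acid transporter, was at 0.49 ± 0.23 between inverted and normal mesenchymal tissue (unadjusted p = 0.054, adjusted p = 1).

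Within a layer the 10 genes varied together from array to array. After removal of the group means, the 45 pairs of genes correlated over the 15 epithelial arrays with r from 0.57 to 0.98 and a median of 0.88, the closest pair being GPD1 and LPL. Over the 15 mesenchymal arrays r ran from 0.11 to 0.96 with a median of 0.80. The closest pair there was PPARG and ADIPOQ, and the loosest GPD1 and SCD. These are descriptions over arrays that share animals, and no test was made.

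The relation to ADIPOQ was tested over the 10 animals, 1 normal teat each, with permutation tests of 100000 resamples (two-sided) and Benjamini-Hochberg adjustment over 44 relations. In mesenchymal tissue ADIPOQ and PPARG correlated with r = 0.95 and rho = 0.93 (n = 10, permutation p = 4e-05 and 0.00030, adjusted p = 0.0012 for r), and r was 0.86 without the 2 animals farthest in ADIPOQ. LPL gave r = 0.91 and rho = 0.87 (permutation p = 0.00013 and 0.0019, adjusted p = 0.0012 for r), with 0.80 without those 2 animals. CIDEA, CEBPA, FABP4, LEP and FASN also passed (permutation test, adjusted p of at most 0.032 for r). SCD gave r = 0.69 and rho = 0.79 (permutation p = 0.028 and 0.0087). Its adjusted p was 0.065 for r and 0.029 for rho, and r was 0.69 without those 2 animals. GPD1 did not follow, with r = 0.35 and rho = 0.37 (permutation p = 0.32 and 0.30, adjusted p = 0.47 for r) and -0.06 without the 2 animals. Its highest mesenchymal values came from animals 1058 and 1059, which also had the highest muscle list means, 11.22 and 11.79. Over the 10 animals GPD1 and the muscle list gave r = 0.37 and rho = 0.41 in mesenchymal tissue (permutation p = 0.29 and 0.25, adjusted p = 0.45 for r), and -0.19 without the 2 animals farthest in GPD1. In epithelial tissue the same pair gave r = 0.65 and rho = 0.71 (permutation p = 0.042 and 0.027, adjusted p = 0.093 for r), and 0.76 without the 2 farthest animals. Both relations of GPD1 with muscle were chosen after the values were seen, and which cells the GPD1 transcript came from was not tested. ADIPOQ itself gave r = 0.47 with the muscle list in epithelial and -0.33 in mesenchymal tissue (rho = 0.59 and -0.39, permutation p = 0.17 and 0.32 for r and 0.081 and 0.26 for rho, adjusted p = 0.31 and 0.47 for r), and 0.46 and -0.57 without the 2 farthest animals.

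Against markers of epithelium ADIPOQ had negative correlations that did not pass the adjusted threshold. With the keratinocyte list in epithelial tissue r was -0.71 and rho -0.68 (n = 10, permutation p = 0.022 and 0.036, adjusted p = 0.056 for r), and -0.30 without the 2 farthest animals. With the luminal and milk list in mesenchymal tissue r was -0.68 and rho -0.58 (n = 10, permutation p = 0.026 and 0.089, adjusted p = 0.063 for r), and -0.70 without those 2. The luminal and milk list in epithelial tissue gave r = -0.52 (permutation p = 0.13, adjusted p = 0.24), and -0.18 without the 2 farthest animals. The keratinocyte list in mesenchymal tissue gave r = -0.57 (permutation p = 0.083, adjusted p = 0.17), and -0.43 without the 2 farthest. The part of these cells in the shared variation of the adipocyte genes was not tested.

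In epithelial tissue GPD1 did follow ADIPOQ, with r = 0.93 and rho = 0.89 (n = 10, permutation p = 0.00022 and 0.0012, adjusted p = 0.0016 for r) and 0.81 without the 2 farthest animals. SCD gave r = 0.95 and rho = 0.90 (permutation p = 9e-05 and 0.00078, adjusted p = 0.0012 for r) and 0.86 without them. LEP gave r = 0.75 and rho = 0.54 (permutation p = 0.011 and 0.11, adjusted p = 0.032 for r) but 0.17 without those 2 animals, so its relation rests on them. CEBPA did not pass, with r = 0.70 and rho = 0.61 (permutation p = 0.02 and 0.067, adjusted p = 0.056 for r). Without those 2 animals its r was 0.33. CIDEA, PPARG, FABP4 and FASN passed (permutation test, adjusted p of at most 0.0064 for r), with 0.56 to 0.78 without those 2 animals. Between the layers of 1 teat no gene's correlation passed the test: r over the 10 animals ran from -0.32 for LEP to 0.58 for CEBPA (permutation p = 0.36 and 0.079, adjusted p = 0.51 and 0.17; rho = -0.31 and 0.32 with permutation p = 0.39 and 0.37), and without the 2 farthest animals these were -0.63 and 0.28.

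**Figure D5:**
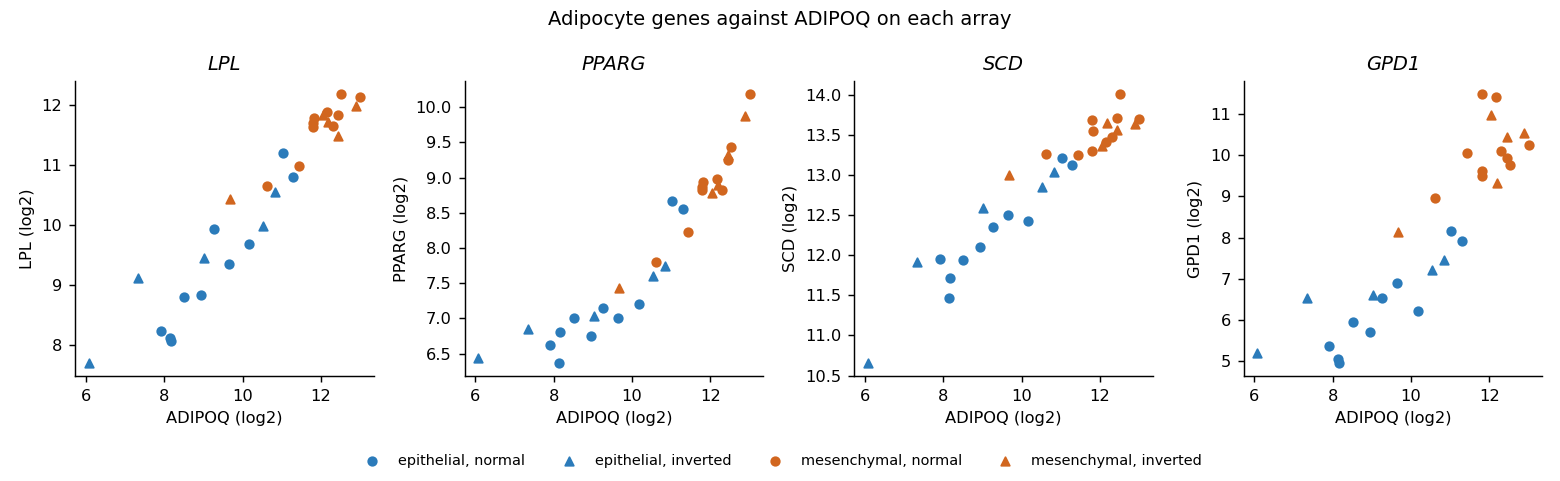
Log2 values of LPL, PPARG, SCD and GPD1 against ADIPOQ on the 30 arrays (blue epithelial, orange mesenchymal; circles normal, triangles inverted teats). Epithelial arrays spread along the line from low to high values and the uppermost reach the lower mesenchymal arrays, whereas mesenchymal GPD1, apart from animal 964, scatters between 9.33 and 11.47 with no visible order in ADIPOQ.

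Among all 6229 genes compared, those most like ADIPOQ over the 30 arrays were DBI, the acyl-CoA binding protein (r = 0.97), ALDOC, an aldolase (0.97), SCD, LPL and ME1 (0.96 each), and SLC2A5, CA3, ALDH1L1, CIDEA and MPC2 (0.95 each). These values include the difference between the layers, since group means were not removed. The median r over all genes was 0.24, against 0.05 in epithelial and 0.01 in mesenchymal tissue after their removal. Within layers, after removal of the group means, the closest were ALDOC, SCD, CA3, DBI and ME1 in epithelial tissue (r = 0.96 to 0.93 over 15 arrays) and PPARG, ALDH1L1, CHPT1, MPC2 and HSD17B12 in mesenchymal tissue (0.96 to 0.94). Of the first 50 genes, 7 were members in epithelial and 5 in mesenchymal tissue, and 7 in each were from the wider fat cell list. The 6229 genes compared held all members but ADIPOQ itself, and 65 genes of the wider list. GPD1 ranked 20th in epithelial and 547th in mesenchymal tissue, SCD 2nd and 191st, and LEP 148th and 46th.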

How the data were processed

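Tissue RNA (500 ng a labelling reaction, per the labels' protocols) was hybridized to 1 array a sample. The authors deposited 1 value a probe set on a scale taken here as log2 from its range (0 to 20.8); per the submitters' processing notes GCOS 1.1.1 and PLIER were used, with no role given. Normalization between arrays is not given in the sources used here, so values were used as deposited. Gene names came from the platform annotation and were matched by Entrez ID to RefSeq.

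Linear models were fitted with limma (version 3.58.1, under R 4.3.3) without 124 control probe sets. A probe set was tested where at least 5 arrays of a fit exceeded the 30th percentile of their own values. P-values were adjusted after Benjamini-Hochberg, and 0.05 was the threshold. The layer difference in normal teats was adjusted for affection status, and the fits were tested on simulated data. Group errors are SD and those of differences SE. The members and gene lists were chosen with earlier results of these data known. Named were all members, the genes most like ADIPOQ and, for the layer comparison, the 2 wider-list genes with the smallest p in each direction. The same rule was set for each teat comparison, but not all of its genes are named there. Those named, AGPAT2, CEBPD, SLC27A1 and PLIN2, had the smallest unadjusted p among the genes it gave. The further wider-list genes of the layer comparison were chosen after their values were seen.

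Animal numbers, from the sample descriptions, pair the arrays. Group means were removed for a check: r between an animal's 2 teats was 0.24 to 0.54 (epithelial arrays) and 0.14 to 0.67 (mesenchymal arrays), and r between the layers of a teat was -0.03 to 0.69. Between teats the highest r was with the same animal for 5 of 5 epithelial and 4 of 5 mesenchymal arrays. Between layers this held for 4 of 5 non-affected animals, and for 3 of 5 normal and 2 of 5 inverted teats of affected animals. The check of the layer pairs is thus weak in affected animals. Alternatives changed the filter, the scaling, the animal as a block, a muscle covariate and the animals left out. No sequences or coordinates were used.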

Additional observations from a re-analysis of the deposited data

Results flagged for a closer look

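A gap test (Dixon, at its 95% critical value of 0.71 for 5 arrays) was applied to each of 18 probe sets in 6 groups, and 13 of 108 groups held an array set apart from the other 4, where chance alone gives about 1 in 20, or 5.4. In epithelial tissue of normal teats of affected animals, animal 1037 stood above the others for FABP4 (13.10), PPARG (8.55), CIDEA (9.36) and 2 FASN probe sets (12.20 and 9.30). In mesenchymal tissue of inverted teats animal 964 stood below the others for ADIPOQ (9.67), an LPL probe set (9.30) and 3 FASN probe sets (8.59, 7.71 and 3.76). The dimmest FASN probe set was also low in mesenchymal tissue of animal 950 (4.04) and listed at 0 in the epithelial piece of the inverted teat of animal 1059. A control probe set of LEP was high in mesenchymal tissue of animal 1109 (8.05). Probe sets of 1 array are not independent of each other, and the 13 come from 5 arrays.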

How the results depend on the processing

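In normal teats the count of member probe sets called between the layers was 15 under every filter, scaling and animal left out, and 14 with the muscle covariate; with the animal as a replicate block it stayed at 15, with the highest adjusted p going from 0.0012 to 0.00019 (random) or 0.0025 (fixed), and the block changed no count of member calls. Over all probe sets 6122 (3762 of them higher in mesenchymal tissue) were called between the layers, 6348 (2867 higher) with quantile normalization, 8124 with the random block and 2671 with the muscle covariate. Leaving out 1 animal gave 4 to 14 calls in non-affected animals, 0 to 14 in normal and 2 to 15 in inverted teats of affected animals, and 0 in all interactions and teat comparisons. Of 3084 recomputed single differences, 90 lost their call, none gained one or reversed, and 262 that were called under neither setting changed sign. Limits are the 5 animals a group, unknown normalization between arrays, values near background for CEBPA, LEP and FASN in epithelial tissue, and pieces of mixed tissue.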
